A study of Caenorhabditis elegans with 2 samples.

Results

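The pan-neuronal and synaptic genes described here are 39 protein-coding genes of Caenorhabditis elegans, of 19973 nuclear protein-coding genes in all. They were taken as a list of names, from unc-64 (syntaxin) to rgef-1. The list has no threshold on a measured value but was drawn up with earlier results of these data known, and all 39 names matched the annotation. The data are lists of chromatin immunoprecipitation sequencing (ChIP-seq) regions from 1 group of samples with 2 biological replicates, which the labels number 3 and 2. Both replicates were late embryos of mixed sex, 5 hours old and synchronised by egg bleaching, of strain OP739, which carries the mutation unc-119(tm4063) and the transgene wgIs739. The transgene holds ceh-19::TY1::EGFP::3xFLAG, a tagged form of the homeodomain protein CEH-19, and a working copy of the mutated gene, written unc-119(+). The immunoprecipitation used an antibody to GFP, which recognises the tag. All material came from 1 strain and from whole embryos, so a region cannot be assigned to neurons or to any other cells, and how many cells carried the tagged protein was not measured. No precipitation from animals without the tag was analysed here.

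Nerve cells of every class share a set of genes for releasing transmitter: SNARE proteins that fuse vesicles with the membrane, active-zone scaffolds that hold vesicles at release sites, enzymes that mature neuropeptides, endocytic adaptors that recover vesicle membrane, and kinesins that carry cargo along the axon. In C. elegans, pan-neuronal genes are known to be driven by several redundant regulatory elements in which homeodomain proteins of the CUT family take part. CEH-19 is a homeodomain protein of another kind, known for its role in the MC motor neurons of the pharynx.

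Of the 39 genes, 10 had a summit of a reproducible peak within 2 kb of a 5′ end, and the sequences at these summits are the places in the genome on which the results below turn. The 101 bases centred on the summit in the pooled list are given for 9 of them, all but unc-14, in order of pooled signal. They come from the RefSeq sequence of assembly WBcel235 (ce11), written 5′ to 3′ on the strand of the gene named. Those at unc-76 and egl-21 follow, which had strong regions outside the reproducible list. Capitals mark GAGAG or its reverse complement CTCTC, the repeat counted in the comparison of words below.
unc-41: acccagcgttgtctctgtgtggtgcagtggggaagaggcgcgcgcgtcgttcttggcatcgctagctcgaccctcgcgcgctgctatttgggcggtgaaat
syd-2: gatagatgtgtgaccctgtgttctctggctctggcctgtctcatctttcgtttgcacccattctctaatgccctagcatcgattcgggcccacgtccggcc
unc-64: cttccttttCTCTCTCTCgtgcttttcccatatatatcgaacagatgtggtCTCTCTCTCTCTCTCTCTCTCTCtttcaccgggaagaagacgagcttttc
rgef-1: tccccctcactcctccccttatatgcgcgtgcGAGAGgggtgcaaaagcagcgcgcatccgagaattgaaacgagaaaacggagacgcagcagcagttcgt
unc-36: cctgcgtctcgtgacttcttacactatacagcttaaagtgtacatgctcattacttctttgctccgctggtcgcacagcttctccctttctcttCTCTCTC
rab-3: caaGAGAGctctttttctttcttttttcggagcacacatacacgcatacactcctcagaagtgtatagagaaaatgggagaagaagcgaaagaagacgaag
egl-3: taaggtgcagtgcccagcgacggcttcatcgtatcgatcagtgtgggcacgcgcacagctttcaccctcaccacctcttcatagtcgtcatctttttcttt
unc-104: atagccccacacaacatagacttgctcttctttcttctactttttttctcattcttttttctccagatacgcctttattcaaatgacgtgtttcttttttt
ric-3: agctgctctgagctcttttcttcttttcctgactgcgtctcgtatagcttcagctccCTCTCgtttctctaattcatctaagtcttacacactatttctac
unc-76: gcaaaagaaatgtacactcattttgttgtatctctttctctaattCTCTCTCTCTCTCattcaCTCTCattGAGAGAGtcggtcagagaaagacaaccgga
egl-21: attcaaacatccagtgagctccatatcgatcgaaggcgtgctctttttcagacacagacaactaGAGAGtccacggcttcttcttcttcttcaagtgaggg
In this order the windows were chrV:9970259-9970359 (minus strand), chrX:10555618-10555718 (minus strand), chrIII:13275983-13276083 (plus strand), chrV:9561824-9561924 (minus strand), chrIII:8201891-8201991 (minus strand), chrII:5725319-5725419 (minus strand), chrV:10174681-10174781 (minus strand), chrII:6993161-6993261 (plus strand), chrIV:7817982-7818082 (plus strand), chrV:15071384-15071484 (plus strand) and chrIV:10481795-10481895 (minus strand). The unc-64 window held 13 overlapping copies of the repeat and the unc-76 window 8, whereas those at unc-41, syd-2, egl-3 and unc-104 held 0. The windows also differed in base composition, with a GC content of 62.4% at unc-41 and 33.7% at unc-104.

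The reproducible list held 1112 peaks, which were the 1112 strongest of the 30000 pooled regions, and the list of replicate 3 held 29534 regions and that of replicate 2 held 30000. Distances are from the nearest of a gene's annotated 5′ ends. Signal values have no stated normalisation and the read depth behind them is unknown, so genes were compared by rank within a list. Ratios of signal between the replicates are given only as descriptions, beside the same ratio over all regions. Within 2 kb of ceh-19 itself no list held a region, and the nearest pooled summits around the gene lay 26958 bp to the left and 26383 bp to the right. At unc-119, the gene that the transgene also carries, there was no reproducible peak, and the strongest pooled region had a signal of 92.7 (rank 1814).

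Among the 39 genes, 10 (25.6%) had a reproducible peak within 2 kb of a 5′ end, against 1093 (5.47%) of all protein-coding genes. Among the strongest 2224 pooled regions, a list double the length of the reproducible one, 20 of the 39 genes (51.3%) had a region, against 10.1% of all genes. Any pooled region lay within 2 kb of 38 genes (97.4%), against 64.9% of all genes; rpm-1, which encodes a ubiquitin ligase that shapes presynaptic terminals, had no region in any list. The counts are descriptions of these lists, and with 1 group of embryos there was no condition to test. The 39 genes also had longer upstream stretches and more 5′ ends than genes at large: their median distance to the next gene upstream was 3284 bp, against 938 bp for all genes, and their median number of 5′ ends was 2, against 1. Per megabase of the windows searched there were 38.05 reproducible peaks at the 39 genes, against 13.1 at all genes, and 494.6 pooled regions, against 307.5. Genes with 1 annotated 5′ end had a reproducible peak in 2 of 11 cases (18.2%), against 4.18% of all such genes, and genes with more than 1 had one in 8 of 28 cases (28.6%), against 9.1%. The part of the upstream length in these shares was not tested.

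**Figure D1:**
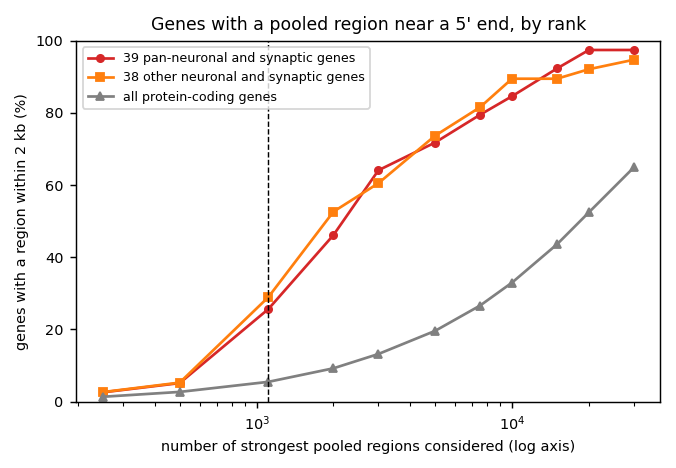
Percentage of genes with a pooled region within 2 kb of a 5′ end (vertical axis) as the list is lengthened from its strongest regions (horizontal axis, log scale), for the 39 genes, the other neuronal and synaptic genes and all protein-coding genes. At the dashed line, the 1112 regions of the reproducible list, the 39 genes stood at 25.6%, the 38 other neuronal genes at 28.9% and all genes at 5.47%. Both gene lists were chosen with earlier results of these data known.

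The signal of the strongest pooled region within 2 kb had a median of 87.7 over the 38 genes with a region, against 49.9 over all genes with one. Its median rank was 2106 for these genes and 9808.5 for all. The same held in each library taken alone: the median rank of the strongest region was 2007 at the 39 genes and 10103 at all genes in replicate 3, and 1690 and 9711.5 in replicate 2. These are values of each gene's strongest region, and the 39 genes had a median of 3 pooled regions, against 1 over all genes. Region by region the medians were closer, with a signal of 52.3 for member regions and 42.5 for all regions near genes. Among reproducible peaks the order turned, with a median of 132.5 for the 39 genes and 153.2 for all those near genes. The weakest reproducible peak in the whole list had a signal of 112.9 and the next pooled region 112.8. Of the 39 genes, ric-3 (122.4, rank 915) was the last inside this limit and unc-76 (109.0, rank 1228) the first outside it. Within the window, the gene whose reproducible peak lay farthest from its 5′ end was unc-104, at 1776 bp upstream. A further 4 genes had one outside the 2 kb window, between 2052 and 2515 bp from a 5′ end. They were dyn-1 at 2052 bp upstream (115.4), egl-21 at 2061 bp (126.6), unc-31 at 2147 bp (113.5) and ric-4 at 2515 bp (130.1). No share of all genes was counted for these distances, peaks farther out are not given, and whether another gene was nearer is not given. Upstream of egl-21 the next protein-coding gene lay 779 bp away, so that peak was past the gap between the genes.

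**Figure D2:**
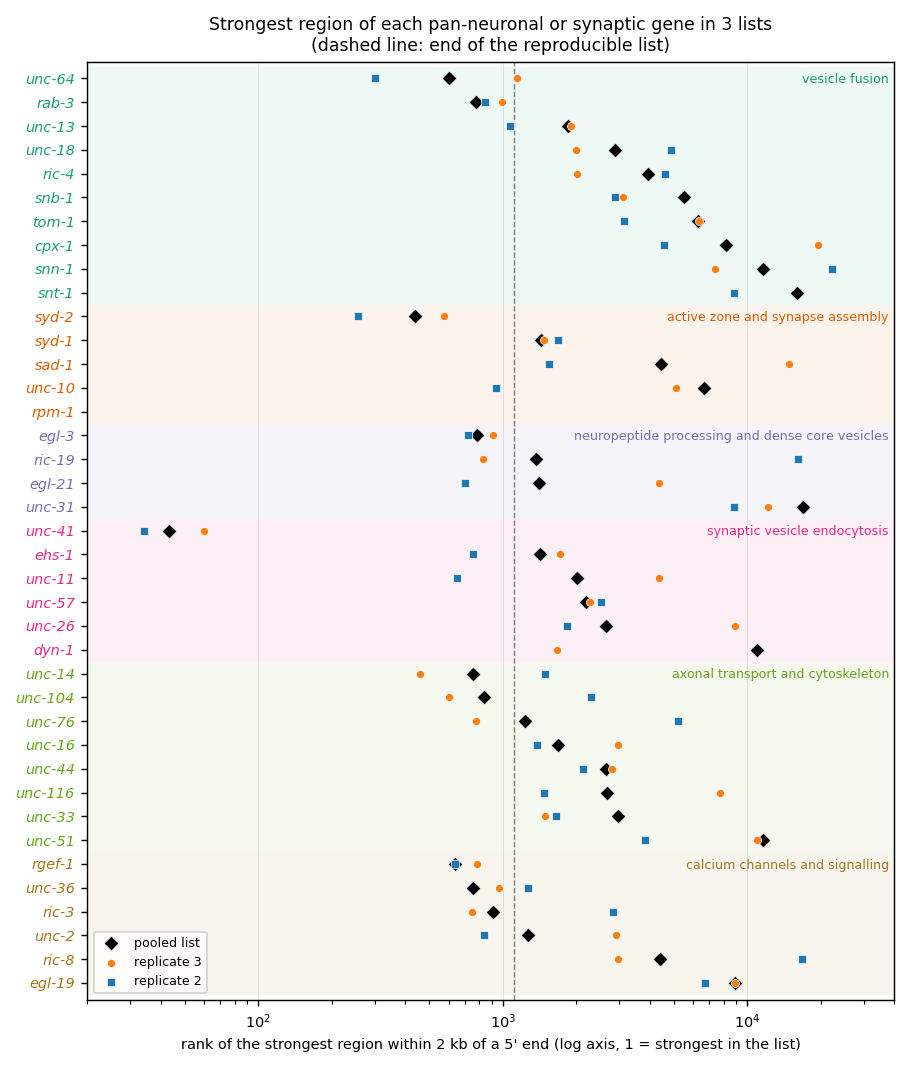
Rank of the strongest region within 2 kb of each of the 39 genes in the pooled list, in replicate 3 and in replicate 2 (horizontal axis, log scale, 1 is the strongest of the list), with genes grouped by role. The pooled points of 10 genes lie left of the dashed line at rank 1112, and unc-41 stands at rank 43, far from the next, syd-2 at rank 437.

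Genes of vesicle fusion had 2 reproducible peaks among 10 genes, at unc-64 and rab-3. The unc-64 gene encodes syntaxin, the SNARE protein of the plasma membrane; its peak at chrIII:13275815-13276250, 1225 bp upstream, had a pooled signal of 147.5 (rank 605), and 69.98 (rank 1147) in replicate 3 and 82.6 (rank 300) in replicate 2. Of the 9 reproducible peaks printed above, it had the most copies of the GAGAG repeat, and it stood higher by rank in replicate 2 than in replicate 3. The gene rab-3 encodes the GTPase of synaptic vesicles; its peak at chrII:5725151-5725586 had 130.9 (rank 774), with 74.0 (rank 991) in replicate 3 and 56.2 (rank 843) in replicate 2. It lay in an intron of rab-3, 639 bp upstream of the inner of the gene's 2 annotated 5′ ends. Next came unc-13, the Munc13 priming factor, with a pooled signal of 92.2 (rank 1842) at 1363 bp upstream. The partners of syntaxin in the fusion machinery ranked lower: ric-4 (SNAP-25) had 69.1 (rank 3930) and snb-1 (synaptobrevin) 61.3 (rank 5525). For unc-18 (Munc18) the strongest region in the window had 77.7 (rank 2868), but it lay 1673 bp upstream of unc-18 and nearer to stn-2, 604 bp away, and beside the transfer RNA gene rte-3. The strongest region for which unc-18 was the nearest gene had 59.7 (rank 5978), 281 bp upstream. The regulators of fusion were lower again, with tom-1 (tomosyn) at 58.5, cpx-1 (complexin) at 53.6, snn-1 (synapsin) at 46.8 and snt-1 (synaptotagmin, the calcium sensor) at 41.1, rank 15911. At snt-1 replicate 3 had no region within 2 kb. The core SNARE genes thus spanned ranks 605 to 5525 in the pooled list.

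Among the 5 genes of the active zone and of synapse assembly, 1 had a reproducible peak and 2 had a region among the strongest 2224. The gene with the peak was syd-2, which encodes liprin-alpha, an organiser of the active zone. Its peak at chrX:10555450-10555885, 429 bp upstream, had a pooled signal of 166.3 (rank 437), with 93.5 (rank 575) in replicate 3 and 87.3 (rank 255) in replicate 2. A non-coding RNA gene, F59F5.9, lay within 200 bp of that summit. For syd-1, a scaffold that acts with syd-2, the strongest of 7 pooled regions had 102.5 (rank 1432), with 58.1 in replicate 3 and 45.1 in replicate 2. That region lay in an intron of syd-1, 483 bp upstream of an inner 5′ end. The non-coding RNA genes F35D2.10 and F35D2.12 lay within 200 bp of its summit. The kinase gene sad-1 had 66.2 (rank 4448), and unc-10, which encodes RIM, had 57.4 (rank 6669). In replicate 2 alone, a region 169 bp inside unc-10 reached 54.0 (rank 939), while the strongest region of unc-10 in replicate 3 was 103 bp upstream with 40.96 (rank 5124). The replicates therefore placed their strongest unc-10 region at different positions.

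Among the 4 genes of neuropeptide processing and dense core vesicles, 3 had a region among the strongest 2224 and 1 a reproducible peak. That gene was egl-3, which encodes the proprotein convertase that cleaves neuropeptide precursors. The peak at chrV:10174513-10174948, 978 bp upstream, had a pooled signal of 130.1 (rank 782) and 76.4 (rank 913) in replicate 3. Replicate 2 had no summit within 100 bp of it, the limit used for matching. The nearest summit of replicate 2 lay 132 bp away with 59.3 (rank 721). It matched another pooled region instead, 1180 bp upstream of egl-3, with a pooled signal of 53.7 (rank 8122). The gene egl-21 encodes the carboxypeptidase that acts after EGL-3; its region at the 5′ end itself (1 bp upstream) had a pooled signal of 103.4 (rank 1406), with 43.2 (rank 4354) in replicate 3 and 60.1 (rank 702) in replicate 2. For ric-19, the homologue of ICA69 in dense core vesicle maturation, the region 12 bp upstream had 104.3 (rank 1372), with 79.9 (rank 831) in replicate 3 and 21.6 (rank 16099) in replicate 2. The replicates thus ordered ric-19 and egl-21 in opposite ways, with ric-19 high in replicate 3 alone and egl-21 high in replicate 2. The fourth gene, unc-31 (CAPS, needed for dense core vesicle release), had 40.0 (rank 16914) within 2 kb.

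Among the 6 genes of synaptic vesicle endocytosis, 4 had a region among the strongest 2224 and 1 a reproducible peak, which was the strongest of all 39 genes. It lay at unc-41, which encodes stonin, an adaptor for recovering synaptotagmin. The peak at chrV:9970175-9970420 had a pooled signal of 426.0 (rank 43), with 225.0 (rank 60) in replicate 3 and 199.4 (rank 34) in replicate 2. The summit was inside an unc-41 intron, 1566 bp downstream of the nearest of 3 annotated 5′ ends, and within 200 bp of the small nucleolar RNA (snoRNA) gene C27H6.5. Whether the signal belongs to the snoRNA gene or to unc-41 cannot be told apart from its position. The strong regions of ehs-1 (Eps15; 102.9, rank 1419), unc-11 (AP180; 89.0, rank 2013) and unc-57 (endophilin; 86.3, rank 2199) lay 489, 1002 and 1262 bp upstream. The ehs-1 region had 59.6 (rank 1715) in replicate 3 and 58.6 (rank 755) in replicate 2. The synaptojanin gene unc-26 followed with 80.4 (rank 2633). Dynamin's gene dyn-1 had a pooled signal of 47.8 (rank 11013). Its strongest region in replicate 3, 1951 bp upstream, had 60.2 (rank 1670), while replicate 2 had no region within 2 kb of it. Apart from unc-41, the endocytic genes had no reproducible peak in the window.

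Among the 8 genes of axonal transport and the cytoskeleton, 4 had a region among the strongest 2224 and 2 a reproducible peak. The gene unc-14 encodes a RUN domain protein that links cargo to kinesin-1; its peak at chrI:7128050-7128485, 22 bp upstream, had a pooled signal of 132.8 (rank 755), with 101.7 (rank 458) in replicate 3 and 46.8 (rank 1495) in replicate 2. The gene unc-104 encodes the kinesin-3 motor of synaptic vesicle precursors; its peak at chrII:6992993-6993428, 1776 bp upstream, had 126.6 (rank 835), with 91.5 (rank 601) in replicate 3 and 41.1 (rank 2299) in replicate 2. Both peaks ranked higher in replicate 3. The same was true of unc-76 (the FEZ1 cargo adaptor), whose region 326 bp upstream had a pooled signal of 109.0 (rank 1228), with 82.4 (rank 776) in replicate 3 and 31.7 (rank 5404) in replicate 2. The JIP3 gene unc-16 had 96.0 (rank 1690) at 30 bp upstream, with 48.9 in replicate 3 and 47.7 in replicate 2. Below them came unc-44 (ankyrin; 80.3, rank 2646), unc-116 (kinesin-1 heavy chain; 79.8, rank 2682), unc-33 (CRMP; 76.7, rank 2971) and unc-51 (the ULK kinase; 46.9, rank 11612). The ankyrin gene had the most pooled regions of the 39 genes, 10 around its 8 annotated 5′ ends.

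Among the 6 genes of calcium channels and signalling, 4 had a region among the strongest 2224 and 3 a reproducible peak. The gene rgef-1, a Ras exchange factor whose promoter is widely used as a pan-neuronal driver, had its peak at chrV:9561656-9562091, 200 bp upstream, with a pooled signal of 144.6 (rank 635), 81.8 (rank 788) in replicate 3 and 62.5 (rank 637) in replicate 2. It was the only pooled region within 2 kb of rgef-1. The gene unc-36 encodes the alpha2-delta subunit of calcium channels; its peak at chrIII:8201723-8202158, 724 bp upstream, had 132.3 (rank 759), with 74.7 (rank 967) in replicate 3 and 49.2 (rank 1264) in replicate 2. The non-coding RNA gene C50C3.15 lay within 200 bp of that summit. The gene ric-3 encodes a chaperone of acetylcholine receptors; its peak at chrIV:7817814-7818249, 219 bp upstream, had 122.4 (rank 915), with 83.8 (rank 746) in replicate 3 and 38.7 (rank 2834) in replicate 2. The presynaptic channel gene unc-2 (CaV2), which UNC-36 accompanies, had no reproducible peak among 7 pooled regions. Its strongest, upstream of an inner 5′ end within the gene, had a pooled signal of 107.6 (rank 1274) and 56.6 (rank 835) in replicate 2 and no match in replicate 3. The second channel gene, egl-19 (CaV1), had 51.8 (rank 8945). For ric-8, a G protein regulator, the strongest region in the window had 66.4 (rank 4418), but its summit was 1954 bp upstream of ric-8 and 5 bp inside mdf-2. The only region nearest to ric-8 itself had 30.5 (rank 28662).

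The replicates gave partly different genes when each was read by its own strongest 1112 regions. In replicate 3, 11 of the 39 genes (28.2%) had such a region, against 5.41% of all genes, and in replicate 2 it was 12 genes (30.8%), against 5.26%. In both were 5 genes, egl-3, rab-3, rgef-1, syd-2 and unc-41, which are 45.5% of the replicate 3 genes and 41.7% of the replicate 2 genes. This overlap was not counted over all genes, so whether 5 is few or many cannot be told. When the strong regions of both replicates also had to lie within 100 bp of each other, 3 genes were left (7.69%), rab-3, rgef-1 and unc-41, against 3.07% of all genes. Under this rule 614 of all genes were left, from 1081 in replicate 3 and 1051 in replicate 2. Of the 10 genes with a reproducible peak, 9 were among the strongest of replicate 3 and 6 among the strongest of replicate 2. These counts were not made over all genes, so they have no share beside them. The reproducible peaks are the strongest pooled regions of the same libraries, so some overlap with each replicate's strongest regions is built in. With no limit on strength, 37 of the 39 genes had a region in replicate 3, against 68.5% of all genes, and 37 in replicate 2, against 63.4%. Regions of both replicates within 100 bp of each other lay at 29 genes (74.4%), against 27% of all genes. The signal of a gene's strongest region in replicate 3 and in replicate 2 had a Spearman correlation of 0.355 over 36 of the 39 genes, and 0.509 over 10186 of all genes; genes share the same pair of libraries, so these are descriptions.

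Over the 54 pooled member regions matched in both libraries, the signal of replicate 3 over that of replicate 2 gave a median log2 ratio of 0.27 (SD 0.72 over regions). Over all such regions near genes the median was 0.39 (SD 0.59), and since no common scale is stated, a ratio is read here only against such a median. For the 9 matched reproducible peaks of the 39 genes the log2 ratios ran from -0.24 at unc-64 to 1.15 at unc-104. Their median was 0.40 (SD 0.50), against 0.56 (SD 0.55) over all matched reproducible peaks near genes. Farthest above the median of all reproducible peaks stood unc-104, unc-14 (1.12) and ric-3 (1.11), and unc-36 (0.60) was close to it. Below it stood rab-3 (0.40), rgef-1 (0.39), unc-41 (0.17), syd-2 (0.10) and unc-64. The ratio at the ric-19 region was 1.89.

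**Figure D3:**
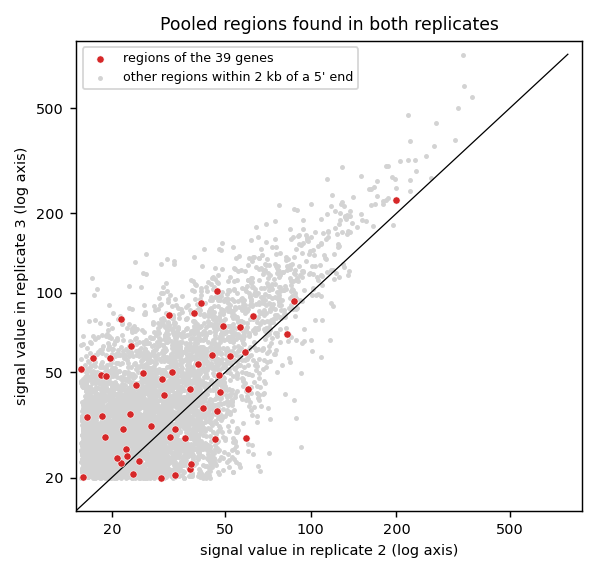
Signal in replicate 3 against signal in replicate 2 (both axes log scale) for pooled regions matched in both libraries, with the 54 regions of the 39 genes in red, other regions near genes in grey and a line of equal value, on 2 scales with no stated common normalisation. Of the red points 38 lie above the line, as do most grey points, and the uppermost red point, at unc-41, stands alone with 225.0 in replicate 3 and 199.4 in replicate 2.

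By position, 83 of the 130 pooled regions near the 39 genes (63.8%) had their summit upstream of the nearest 5′ end of the gene, against 49.7% of all regions near genes. Among reproducible peaks, 9 of 10 were upstream, against 76% of all reproducible peaks near genes, and the exception was unc-41. They lay farther out: the median distance was 681.5 bp for the 10 peaks and 430.5 bp for all. Within 500 bp of a 5′ end, 4 of the 39 genes had a reproducible peak (rgef-1, ric-3, syd-2 and unc-14), against 2.53% of all genes. By location, 8 of the 10 lay between genes and those of unc-41 and rab-3 in the genes' own introns. Locations were not counted for the reproducible peaks of all genes, so this has no share beside it. In 11 of the 130 pairs of region and gene (8.46%) the 5′ end of some other protein-coding gene lay nearer to the summit, against 27.1% over all genes. Of the 23 regions among the strongest 2224, 0 had another gene nearer, a count that was not made over all genes.

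**Figure D4:**
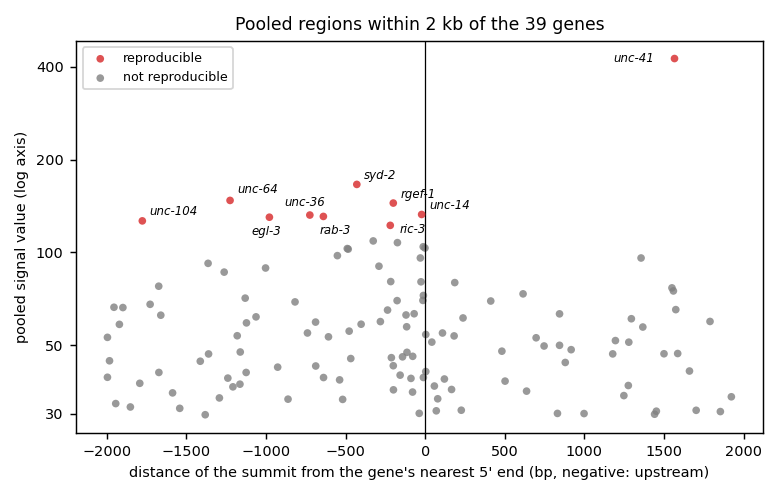
Pooled signal (vertical axis, log scale) against the distance of the summit from the nearest 5′ end of the gene (horizontal axis in bp, negative upstream) for the 130 pooled regions within 2 kb of the 39 genes. Of the 10 reproducible peaks, 9 lie upstream, and the peak of unc-41 lies 1566 bp downstream.

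Genes of transfer RNAs, snoRNAs, small nuclear RNAs or microRNAs lay within 200 bp of 3 of the 130 pooled member regions (2.31%), against 2.11% of all regions near genes, and of 1 of the 10 reproducible peaks, that of unc-41, against 19.4% of all reproducible peaks near genes. The other two were the unc-18 region beside rte-3 described above and a weak region of unc-31 beside the small nuclear RNA gene F07C6.5. The word GAGAG or its reverse complement lay within 50 bp of the summit in 44 of the 130 regions (33.8%), against 21.1% of all regions near genes. Among reproducible peaks it lay in 6 of 10, against 40.4% of all those near genes. The words TAATTA and TAATTG, which hold the core of many homeodomain sites, were searched on both strands and lay in 8 of the 130 regions (6.15%), against 9.37%, and in 0 of the 10 reproducible peaks, against 4.88%. The shorter core TAAT, which the longer words contain, lay in 56 regions (43.1%), against 51.5%. Among reproducible peaks it lay in 3 of 10, against 32.9% of all those near genes. A word in the window is a description of its letters, not a site of binding.

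A second list of 38 neuronal and synaptic genes, all matched by name and holding none of the 39, was treated alike. It too was chosen with earlier results of these data known, so it is no independent check of the first list. It had 11 genes with a reproducible peak (28.9%), against 5.47% of all genes, and 21 with a region among the strongest 2224 (55.3%), against 10.1%. The strongest peak stood at egl-30, which encodes the Gq alpha subunit that promotes transmitter release, with a pooled signal of 246.9 (rank 163) at 26 bp upstream. The spectrin gene unc-70 had 168.7 (rank 415), and dgk-1 (diacylglycerol kinase, which opposes EGL-30), nsf-1 (the ATPase that takes SNARE complexes apart), apa-2 (the AP2 adaptor), ccb-1 (a calcium channel beta subunit), ptl-1 (a tau homologue), cla-1 (clarinet, of the active zone), aex-3 (an exchange factor for RAB-3), unc-108 (RAB-2) and maco-1 (macoilin) had one too. Their median distance to the next gene upstream was 3966 bp, and they had 57.6 reproducible peaks per megabase of window. By chromosome, the 39 genes had a reproducible peak in 3 of 8 cases on V, against 3.26% of all genes there, in 2 of 5 on II (5.13% of all genes) and in 2 of 4 on III (6.78%). They had one in 1 of 9 cases on IV (4.79% of all genes), 1 of 6 on X (7.14%) and 1 of 7 on I (7.71%).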

How the data were processed

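ChIP-seq regions of 2 biological replicates of 1 group were analysed from narrowPeak lists on ce11. Per the text files deposited with the samples, each replicate list and the pooled list holds peaks and background regions called against 1 control file, and the reproducible list was derived from them by the irreproducible discovery rate. Signal values were used as deposited by the authors, with no normalisation stated. The aligner, the caller, their versions and the threshold are not given in the sources used here. Neither reads nor coverage were analysed, so the depth is unknown. The labels call the replicates biological but do not say whether they were separate cultures.

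Summits were assigned to every protein-coding gene with a transcript 5′ end within 2 kb (Ensembl release 115), and summits of different lists were matched within 100 bp. Words were counted within 50 bp of a summit, and small RNA genes within 200 bp. Sequences came from the RefSeq assembly. With 1 group, no difference was tested. The assignment was tested on simulated data. The 39 genes and the second list were chosen with earlier results of these data known. Named were all 39 genes, and genes of the second list with a reproducible peak. Python 3.11.15, numpy 2.4.6, pandas 2.3.3, scipy 1.17.1 and matplotlib 3.10.9 were used.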

Additional observations from a re-analysis of the deposited data

How the results depend on the processing

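Of 56 alternatives to the settings of these counts, 42 left the value within 1.5 times or within its spread and 14 moved it. Of the 48 with a share over all genes or regions, 4 put the members' share on the other side of it: matched strong regions from the outermost 5′ end alone (1 gene, 2.56%, against 2.83%), and small RNA genes within 100 bp (1.54% against 1.75%), without replicate 2 (1.55% against 2.02%) or without replicate 3 (1.55% against 2.12%). The 10 genes with a reproducible peak were 4 within 500 bp (10.3%, against 2.53% of all genes), 2 with the strongest 556 peaks alone (5.13% against 2.98%) and 20 with double the list (51.3% against 10.1%). For the second list of 38 genes these were 4 (10.5%), 3 (7.89%) and 21 (55.3%). With 1 replicate's strongest regions in place of the reproducible list, the counts were 11 to 12 for the 39 genes and 8 to 13 for the second list. Genes with a matched region in both replicates numbered 18 within 500 bp (46.2% against 12.8%). The 3 genes with matched strong regions were 1 within 500 bp (2.56% against 1.36%) and 5 with matching within 200 bp (12.8% against 3.38%). The median signal from 1 replicate was 45.1 to 56.4, against 26.4 to 32.5 for all genes, with 45.1 without replicate 3; each list has its own scale. Small RNA genes lay near 5 regions within 500 bp (3.85% against 2.8%), and near 23 (17.7% against 10%) with piRNA and other non-coding RNA genes added, an alternative chosen after seeing the data. The repeat lay in 26 regions within 25 bp (20% against 11.8%), and in 40 to 43 from 1 replicate. From the outermost 5′ end alone, unc-41 and rab-3 lost their reproducible peak and 8 genes remained. No paired analysis was possible because there was only 1 group. Depth is unknown, and with 39 genes from 1 pair of libraries a few genes decide each share.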
